A study of Mus musculus with 6 samples.

Results

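Transcripts of 10 genes of the Slc39 family (Slc39a1, Slc39a4, Slc39a5, Slc39a6, Slc39a7, Slc39a8, Slc39a10, Slc39a11, Slc39a13 and Slc39a14), which encode zinc importers of the ZIP type, were compared between livers of wild type and Atp7b-/- mice. They were found by matching Ensembl identifiers to gene symbols, and make up 10 of the 41388 genes counted. Liver RNA was sequenced from 3 wild type and 3 Atp7b-/- libraries of mice on a mixed C57BL x 129S6/SvEv background, aged 6 weeks, which had all eaten the same diet with 16 ppm copper, 100 ppm zinc and 235 ppm iron. Atp7b encodes the copper-transporting ATPase that is defective in Wilson disease; no Cre or transgene is mentioned, and which part of the gene was targeted is not stated in the labels. Each genotype had 1 paired-end library (wild type replicate 1 and Atp7b-/- replicate 3) and 2 single-end ones, a difference called layout below. Replicate numbers only name the libraries. The labels do not tie every library to its own animal, so the p-values cover only the spread seen here between libraries, part of which may be technical.

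ZIP proteins carry zinc into the cytosol, either across the plasma membrane or out of organelles, and so act against the Slc30 exporters, which carry zinc out of the cytosol. Cytosolic zinc is buffered by metallothioneins, whose genes are switched on by the metal-sensing transcription factor MTF1. In hepatocytes Slc39a14 is the best known importer: it also carries iron and manganese and is induced by interleukin 6 in the acute phase response, while Slc39a4, the importer mutated in acrodermatitis enteropathica, is best known for taking up dietary zinc in the intestine.

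The libraries held 5919389 to 25973968 counts, and all 10 Slc39 genes passed the filter on low counts. Values below are CPM, counts scaled to the library total after TMM, and 3 counts correspond to 0.103 to 0.556 CPM. Atp7b itself stood at 25.3, 85.2 and 59.7 CPM in wild type replicates 1 to 3 and at 19.2, 13.8 and 13.3 CPM in Atp7b-/- replicates 1 to 3, lower in the mutants (log2 fold change -1.73, SE 0.30, adjusted p = 0.02 by edgeR's quasi-likelihood test). The difference was -0.93 between the paired-end libraries and -2.1 between the single-end means. Its edgeR call was lost without wild type replicate 3 (adjusted p = 0.0687), Atp7b-/- replicate 1 (0.0969) or Atp7b-/- replicate 2 (0.0664). By label, wild type replicate 1 and Atp7b-/- replicates 1 and 2 were male. The other libraries were labelled female. Within each layout the genotypes thus carry opposite sex labels, so there genotype and labelled sex cannot be told apart. The labelled sexes were not borne out in 2 libraries. Atp7b-/- replicate 3, labelled female, had 0.482 CPM of Xist, an RNA of females, and 126 CPM of the Y-linked gene Ddx3y. Wild type replicate 3, labelled female, had 17.4 CPM of Xist and 28.0 CPM of Ddx3y. Xist stood at 1.005 and 371 CPM in wild type replicates 1 and 2, and at 0.117 and 0.702 CPM in Atp7b-/- replicates 1 and 2. All 7 hepatocyte markers that matched a symbol were present, with summed levels of 81570 to 113200 CPM in wild type and 58970 to 75350 CPM in Atp7b-/- libraries, and none of the 7 was called.

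The liver expressed all 10 Slc39 genes, over a wide range of levels. Per length, as CPM per kilobase of merged exons, Slc39a4 had the highest level, 40.2 ± 14.7 (mean ± SD, n = 6 libraries), and Slc39a10 the lowest, 0.524 ± 0.582. The order from the top was Slc39a4, Slc39a1 (22.7 ± 3.03), Slc39a14 (18.7 ± 6.09), Slc39a11 (9.05 ± 2.78), Slc39a7 (8.28 ± 4.67), Slc39a8 (5.27 ± 0.727), Slc39a13 (2.91 ± 0.814), Slc39a5 (1.81 ± 1.30), Slc39a6 (0.723 ± 0.278) and Slc39a10. Neighbours in that order had overlapping ranges over the 6 libraries, except Slc39a8 and Slc39a13 (4.03 to 5.99 against 1.82 to 3.81). Slc39a4 lay above Slc39a1, and Slc39a14 above Slc39a11, in each of the 6 libraries, whereas Slc39a1 lay above Slc39a14 in 4 of 6 and Slc39a11 above Slc39a7 in 4 of 6. Slc39a4, Slc39a1 and Slc39a14 together, named after their values were seen, made up 70.1% to 79.9% of the summed level per length of the 10 genes in each library. With the longest transcript as length, Slc39a4 stayed first by mean (45.4), while Slc39a14 (38.6) came above Slc39a1 (22.7) and Slc39a8 (9.59) above Slc39a7 (8.79). The annotated exons cover 10550 bases in Slc39a14 and 7664 in Slc39a8, and the longest transcripts 5117 and 4212. With that length the order was not compared library by library.

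**Figure D1:**
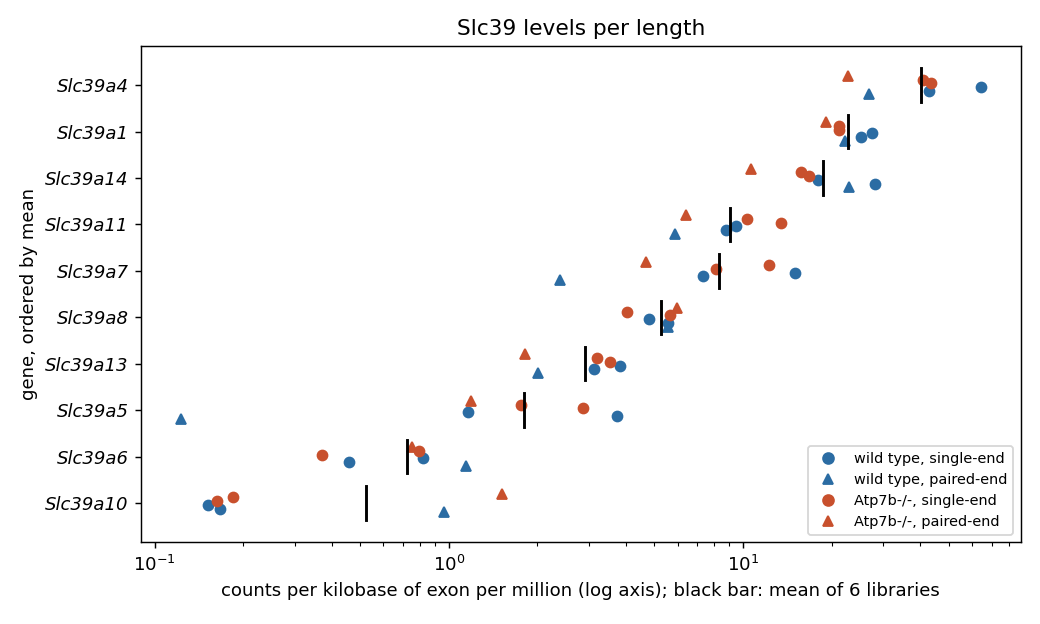
Level per length of each Slc39 gene (horizontal log axis, CPM per kilobase of merged exons) in the 6 libraries, ordered by the mean of the 6, drawn as a black bar; colour gives the genotype and symbol shape the layout. Slc39a4 (mean 40.2), Slc39a1 (22.7) and Slc39a14 (18.7) lie to the right, and the paired-end libraries of Slc39a10 lie apart from its single-end ones.

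None of the 10 Slc39 genes passed the test between genotypes: 0 were higher and 0 lower in the mutants in the quasi-likelihood test of edgeR, at an adjusted p under 0.05 after Benjamini-Hochberg adjustment over 12988 genes. Across all genes tested, 2.49% were called, 1.9% higher and 0.585% lower. DESeq2 and limma-voom also called 0 of the 10. At an unadjusted p under 0.05 edgeR gave 1 of the 10, Slc39a14, against 14.5% of all genes. The median log2 fold change of the 10 was -0.05, against -0.0087 over all genes. It was positive in 4 of the 10 and negative in 6, where 49.1% of all genes were positive. The median size of the difference regardless of sign was 0.31 for the 10 and 0.27 for all genes. The genotypes had separate CPM ranges in 2 of the 10, Slc39a14 and Slc39a1, both lower in Atp7b-/- livers, and in 8.51% of all genes (3.28% lower and 5.23% higher in Atp7b-/- livers). Among the single-end libraries alone the ranges were separate in 3 of the 10, these 2 and Slc39a11, against 46.1% of all genes. These ranges include the TMM factors, which were 0.912 to 0.961 in wild type and 1.035 to 1.122 in Atp7b-/- libraries. By counts over library totals, without these factors, the ranges of Slc39a14 and Slc39a1 over all libraries overlapped. For 5 of the 10 (Slc39a1, Slc39a4, Slc39a8, Slc39a11 and Slc39a13) the 95% interval of the fold change, unadjusted for the number of genes, lay within 2-fold in either direction. For the other 5 it reached beyond 2-fold on at least 1 side.

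**Figure D2:**
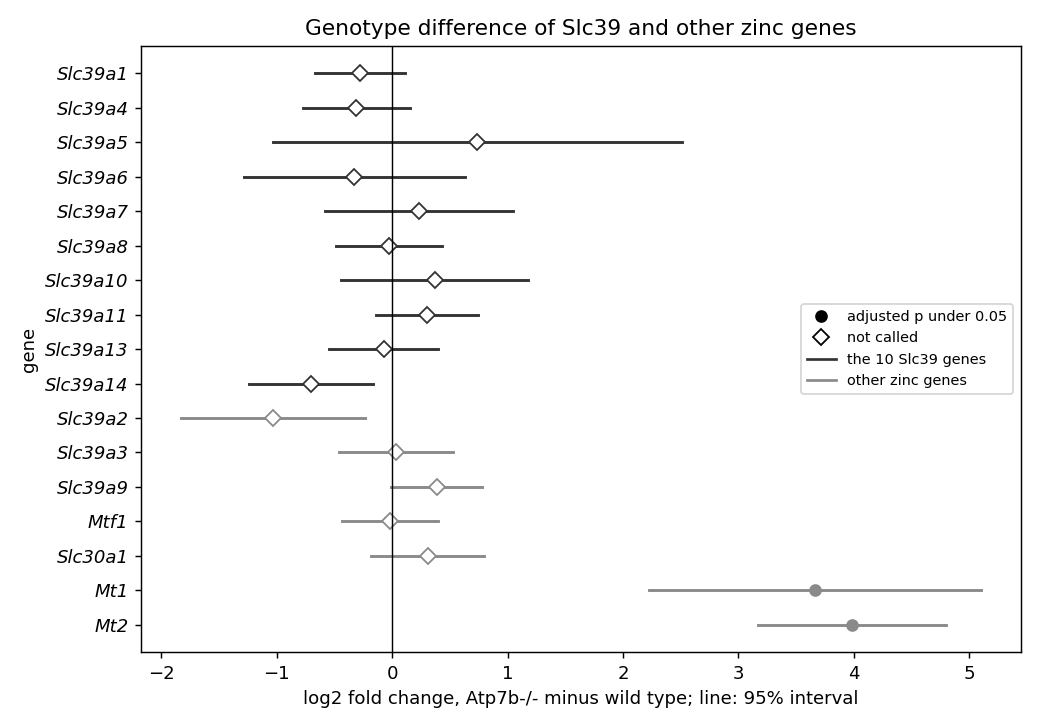
Log2 fold change between Atp7b-/- and wild type livers (horizontal axis) with its unadjusted 95% interval for the 10 Slc39 genes (dark) and other zinc genes (grey); filled circles are called and open diamonds are not. Mt1 (3.66) and Mt2 (3.98) stand far to the right of the Slc39 genes, which lie between -0.70 and 0.74.

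Slc39a14 (ENSMUSG00000022094, chromosome 14, 70303469 to 70351425, minus strand, GRCm38) had the smallest p of the 10. Its level was 242.8, 297 and 189 CPM in wild type replicates 1 to 3 and 177, 167 and 113 CPM in Atp7b-/- replicates 1 to 3. After TMM each Atp7b-/- library lay below each wild type library, although wild type replicate 3 and Atp7b-/- replicate 1 were close. Without the TMM factors the groups overlapped. Wild type replicate 3 then lay below Atp7b-/- replicate 1 (1021 of 5919389 counts against 3041 of 16597683). The log2 fold change was -0.70 (SE 0.24, 95% interval -1.24 to -0.17, adjusted p = 0.205 by edgeR), which did not pass the threshold. The difference was -1.11 on the log2 scale between the paired-end libraries and -0.50 between the means of the single-end ones, a gap that was not called either (interaction adjusted p = 0.987 by edgeR). Without wild type replicate 3 it came to -0.93 (adjusted p = 0.0686) and without Atp7b-/- replicate 3 to -0.49 (0.491), the ends of the range over the left-out libraries. Here and below, when a paired-end library is left out, the layout term fits the other one exactly. The genotype difference then rests on the 4 single-end libraries. After TMM the summed hepatocyte markers given above were lower in the same 3 libraries. Without the TMM factors these sums overlapped between the genotypes. The albumin gene Alb was the largest part of each sum. Alb also differed most of the 7 markers (-0.72 on the log2 scale, adjusted p = 0.256 by edgeR). Its own levels overlapped, with 42890 CPM in wild type replicate 3 and 49860 CPM in Atp7b-/- replicate 3. Over the 7 markers the median was -0.28, with 6 negative, 1 positive (0.04) and 0 with separate ranges, where 49.1% of all genes were positive. The part of hepatocyte transcripts in the Slc39a14 values was not tested. In whole liver, fewer cells of a type and less RNA per cell cannot be told apart.

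Slc39a8 (ENSMUSG00000053897, chromosome 3, 135825279 to 135888572, plus strand), the closest relative of Slc39a14 and likewise an importer of zinc and manganese, was among the steadiest of the 10. It stood at 42.8, 42.7 and 36.7 CPM in wild type replicates 1 to 3 and at 43.4, 30.9 and 45.9 CPM in Atp7b-/- replicates 1 to 3. The groups overlapped fully, and the log2 fold change was -0.03 (SE 0.20, 95% interval -0.48 to 0.43, adjusted p = 0.972 by edgeR). The difference between Slc39a14 and Slc39a8 in their response was not tested.

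Slc39a1 (ENSMUSG00000052310, chromosome 3, 90248172 to 90253612, plus strand), a broadly expressed importer of the plasma membrane, varied least: the highest library was 1.44-fold above the lowest. Wild type replicates 1 to 3 had 52.7, 59.4 and 64.9 CPM and Atp7b-/- replicates 1 to 3 had 50.3, 50.1 and 45.1 CPM. After TMM all 3 Atp7b-/- libraries were below all 3 wild type ones, by a small margin. Without the TMM factors the groups overlapped. The log2 fold change was -0.28 (SE 0.17, 95% interval -0.67 to 0.11, adjusted p = 0.515 by edgeR).

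Slc39a4 (ENSMUSG00000063354, chromosome 15, 76612383 to 76617384, minus strand) had 83.3, 134 and 199 CPM in wild type replicates 1 to 3 and 135, 127 and 70.5 CPM in Atp7b-/- replicates 1 to 3. The lowest library of each genotype was the paired-end one, and the groups overlapped. Its log2 fold change was -0.31 (SE 0.21, 95% interval -0.78 to 0.16, adjusted p = 0.551 by edgeR). The 6 small intestine markers summed to 16.1 to 61.9 CPM in wild type libraries and 28.8 to 66.7 CPM in the mutants, most of it Fabp2 (12.8 to 64.1 CPM over the 6 libraries) and Lgals4 (2.07 to 7.73 CPM). Of the others, Cdx1 was at 0 in every library and Cdx2, Sis and Vil1 reached at most 0.0583, 0.0457 and 0.482 CPM. The part of these transcripts in the Slc39a4 values was not tested.

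Slc39a5 (ENSMUSG00000039878, chromosome 10, 128395931 to 128401229, minus strand), an importer of the basolateral membrane known from intestine and pancreas, had the widest fold range of the 10, although the coefficient of variation was higher for Slc39a10 (111%) than for Slc39a5 (72.0%). It had 0.274, 8.33 and 2.60 CPM in wild type replicates 1 to 3, from 6, 98 and 14 counts, and 6.35, 3.93 and 2.65 CPM in Atp7b-/- replicates 1 to 3. Wild type held both the lowest and the highest library, a 30.4-fold spread. The log2 fold change was 0.74 (SE 0.75, 95% interval -1.03 to 2.51, adjusted p = 0.721 by edgeR). Leaving out wild type replicate 1 gave -0.12, leaving out Atp7b-/- replicate 3 gave -0.11, and leaving out wild type replicate 2 gave 1.89. Of the 12 pancreatic acinar markers, Cpa1, Pnlip and Clps were at 0 in every library. Prss2, Ctrb1, Cel, Cela3b and Amy2b had at most 1 count in any library. The summed level of the 12, mostly the elastase gene Cela1, spanned 10.96 to 22.39 CPM in wild type libraries. That was just below the 22.45 to 41.7 CPM of the Atp7b-/- ones. Cela1 by itself overlapped between the genotypes, with 21.5 CPM in wild type replicate 1 and 18.0 CPM in Atp7b-/- replicate 2. The trypsin inhibitor gene Spink1 had 1 count in all over the wild type libraries against 16, 8 and 41 over the mutant ones (replicates 1 to 3), and was called (adjusted p = 0.0137 by edgeR), having passed the filter only through the mutant libraries. The part of these transcripts in the Slc39a5 values was not tested.

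Slc39a6 and Slc39a10 encode close relatives that form a pair in the plasma membrane, and both were low in liver. Slc39a10 (ENSMUSG00000025986, chromosome 1, 46807544 to 46892852, minus strand) had 5.85, 1.02 and 0.927 CPM in wild type replicates 1 to 3 and 0.991, 1.12 and 9.26 CPM in Atp7b-/- replicates 1 to 3. Only the paired-end library of each genotype was high, and the single-end libraries, with 5 to 17 counts, lay within 0.927 to 1.12 CPM. Its log2 fold change between genotypes was 0.37 (SE 0.36, 95% interval -0.44 to 1.18, adjusted p = 0.702 by edgeR). Slc39a6 (ENSMUSG00000024270, chromosome 18, 24579881 to 24603817, minus strand) lay between 1.52 and 4.66 CPM, with overlapping genotypes (log2 fold change -0.33, SE 0.42, 95% interval -1.29 to 0.63, adjusted p = 0.788 by edgeR).

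**Figure D3:**
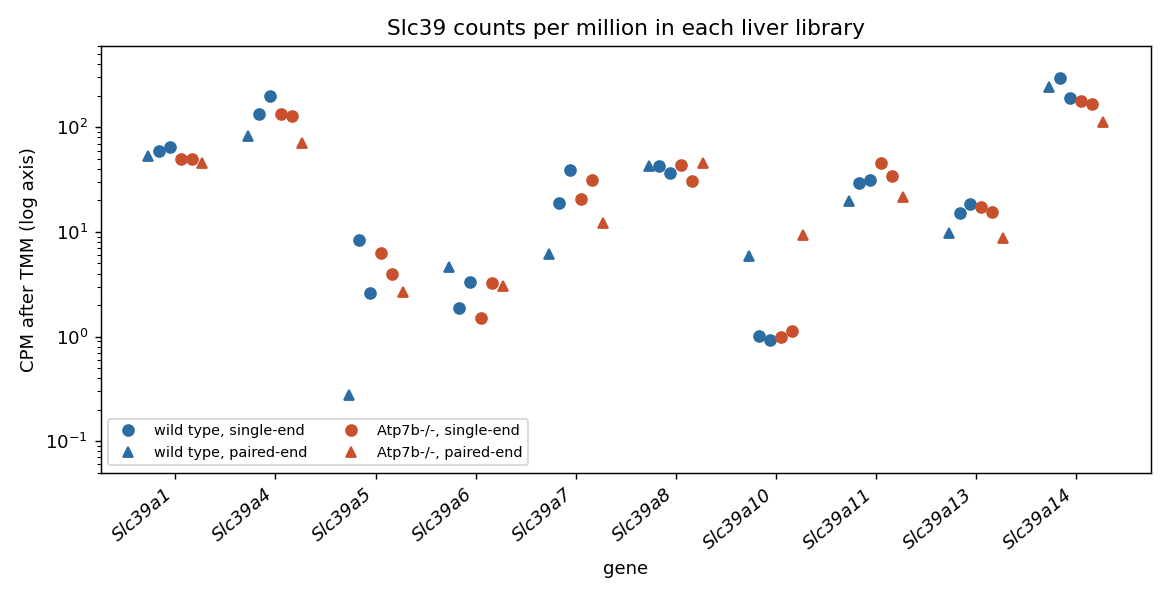
CPM (vertical log axis) of each Slc39 gene in each of the 6 libraries, with wild type in blue and Atp7b-/- in red, circles for single-end and triangles for paired-end libraries. The red points of Slc39a14 (113 to 177) and Slc39a1 (45.1 to 50.3) lie below the blue ones, and the triangles of Slc39a10 (5.85 and 9.26) stand above its circles.

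The 3 importers of internal membranes did not pass the test either. Slc39a7 (ENSMUSG00000024327, chromosome 17, 34028269 to 34031682, minus strand) releases zinc from the endoplasmic reticulum, Slc39a13 (ENSMUSG00000002105, chromosome 2, 91061791 to 91070417, minus strand) acts in the secretory pathway and is needed in connective tissue, and Slc39a11 (ENSMUSG00000041654, chromosome 11, 113244853 to 113650079, minus strand) is a distant member of the family found in the Golgi and nucleus. Slc39a11 had 19.8, 29.3 and 31.7 CPM in wild type replicates 1 to 3 and 45.4, 34.7 and 21.6 CPM in Atp7b-/- replicates 1 to 3. Within each layout the Atp7b-/- libraries lay above the wild type ones, while across layouts the groups overlapped. Its log2 fold change was 0.30 (SE 0.20, 95% interval -0.14 to 0.75, adjusted p = 0.531 by edgeR). Slc39a7 ranged from 6.17 to 38.7 CPM over the wild type libraries, which enclosed the 12.1 to 31.6 CPM of the Atp7b-/- ones. Its log2 fold change was 0.23 (SE 0.35, adjusted p = 0.826 by edgeR), and -0.12 without wild type replicate 1 or -0.11 without Atp7b-/- replicate 3. The level of Slc39a7 is uncertain, because 2084 of its 2584 exon bases are shared with the same-strand transcript Gm20427, which itself had 1 to 7 counts; the labels do not state how reads in shared exons were assigned. Slc39a13 lay between 9.78 and 18.5 CPM in wild type libraries and between 8.85 and 17.1 CPM in the others (log2 fold change -0.07, SE 0.21, 95% interval -0.54 to 0.40, adjusted p = 0.914 by edgeR). It shares 215 of 4869 exon bases with the proteasome gene Psmc3 on the opposite strand.

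The Slc39 genes differed more between layouts than between genotypes, with a median difference regardless of sign of 0.80 on the log2 scale against 0.31. This was not particular to them, since over all genes 52.8% were called between layouts by edgeR and 2.49% between genotypes. The paired-end libraries were also deep (23651080 and 25973968 counts) and had 7.74% and 8.14% of counts from mitochondrial genes, against 2.57% and 2.50% in the single-end wild type libraries and 4.15% and 4.09% in the single-end mutant ones. The part of depth and mitochondrial share in these differences was not tested. In the test of layout in the same edgeR fit, 5 of the 10 differed, 4 lower and 1 higher in the paired-end libraries, beside 52.8% of all genes (25.7% lower and 27.2% higher). Slc39a10 was 7.33-fold higher in the paired-end libraries (log2 2.87, SE 0.34, adjusted p = 0.000294 by edgeR). Slc39a7 was 3.06-fold lower there (log2 -1.61, SE 0.40, adjusted p = 0.0102), and Slc39a4, Slc39a13 and Slc39a11 were lower by 1.93-fold, 1.78-fold and 1.69-fold (adjusted p = 0.00763, 0.013 and 0.0152 by edgeR). The layout differences of Slc39a1, Slc39a8 and Slc39a14 were -0.20, 0.20 and -0.30 on the log2 scale and did not pass. Without wild type replicate 1 the layout difference was called in 1 of the 10, Slc39a10, and without Atp7b-/- replicate 3 in 3, Slc39a5, Slc39a7 and Slc39a10. Within each genotype the paired-end library also carries the other sex label, in opposite directions in the 2 genotypes, so within a genotype layout and labelled sex cannot be told apart.

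**Figure D4:**
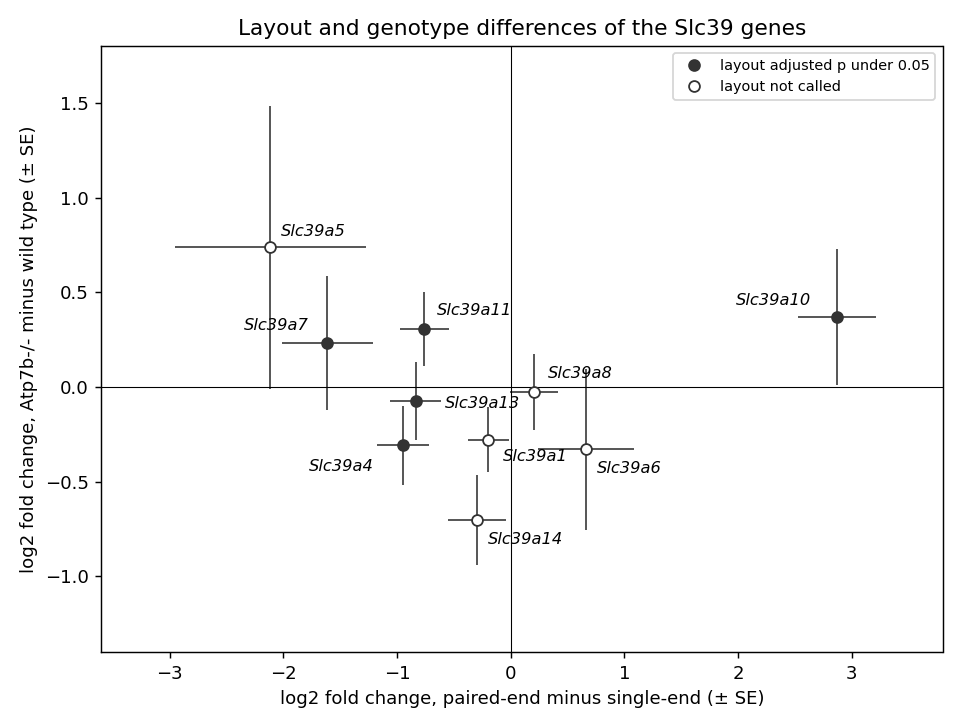
Log2 fold change between layouts (horizontal axis, paired-end minus single-end) against that between genotypes (vertical axis, Atp7b-/- minus wild type) for the 10 Slc39 genes, each with its SE; filled symbols passed the test of layout. The points spread from -2.12 to 2.87 along the layout axis and from -0.70 to 0.74 along the genotype axis, with Slc39a10 alone at the far right.

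The genotype difference had the same sign in both layouts in 7 of the 10 genes, against 58.1% of all genes. A test of whether it differed between the layouts called 0 of the 10 in edgeR, and 0.0154% of all genes. At an unadjusted p under 0.05 it gave 1 of the 10, Slc39a5 (log2 difference of 3.36, adjusted p = 0.987), whose paired-end libraries differed by 3.27 and whose single-end means differed by -0.09. With that term both paired-end libraries are fitted without residual, and the spread behind these p-values is that of the 4 single-end ones. The same term is the test of labelled sex, given the way sexes and layouts fall.

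The other Slc39 genes were likewise not called: 0 of 3 tested by edgeR, and 1 of the 3, Slc39a2, at an unadjusted p under 0.05 (14.5% of all genes). Slc39a2, a zinc importer close to Slc39a1, had 9.55, 12.5 and 9.82 CPM in wild type replicates 1 to 3 and 3.21, 8.14 and 4.68 CPM in Atp7b-/- replicates 1 to 3. All Atp7b-/- libraries were below all wild type ones (log2 fold change -1.03, SE 0.35, 95% interval -1.83 to -0.24, adjusted p = 0.21 by edgeR). The log2 fold changes of Slc39a3 and Slc39a9 were 0.03 and 0.39 (adjusted p = 0.97 and 0.362). Slc39a2 shares 151 exon bases with Mettl17 on the same strand, and Slc39a9 shares 459 with Erh on the opposite strand. Slc39a12 did not pass the filter, with 6 counts in Atp7b-/- replicate 3 and 0 elsewhere.

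The metallothionein genes stood apart from both transporter families. Of 3 tested genes in the list of metallothioneins and Mtf1, Mt1 and Mt2 rose and Mtf1 did not pass. Mt2 had 14.7, 64.8 and 34.7 CPM in wild type replicates 1 to 3 and 985, 1084 and 134 CPM in Atp7b-/- replicates 1 to 3, without overlap (log2 fold change 3.98, SE 0.36, adjusted p = 0.00101 by edgeR). Mt1 had 26.5, 831 and 191.7 CPM in wild type replicates 1 to 3 and 7207, 4323 and 421 CPM in Atp7b-/- replicates 1 to 3, so that wild type replicate 2 lay above Atp7b-/- replicate 3. It rose by 3.66 (SE 0.59, adjusted p = 0.0337 by edgeR), but its adjusted p was 0.145, 0.214 and 0.151 when wild type replicate 1, Atp7b-/- replicate 1 and Atp7b-/- replicate 3 were left out in turn, and 0.0522 by limma-voom. Mtf1, the zinc sensor, stood at 26.1 ± 2.79 CPM (mean ± SD, n = 3) in wild type livers and at 26.01 ± 5.00 CPM in the mutants (n = 3), a log2 fold change of -0.02 with adjusted p = 0.979 by edgeR. Of the Slc30 exporters 0 of 7 tested were called by edgeR. Their median log2 fold change was 0.39, with 6 of 7 positive (49.1% of all genes). An unadjusted p under 0.05 was seen in 1 of the 7, Slc30a5 (14.5% of all genes). For Slc30a5, an exporter into the secretory pathway, the difference was 0.45 on the log2 scale (SE 0.19, adjusted p = 0.311). For Slc30a10, a manganese exporter that works opposite Slc39a14, it was 0.91 (SE 0.42, adjusted p = 0.388). Slc30a1, which MTF1 is known to activate, stood at 0.31 (SE 0.22, adjusted p = 0.568).

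MTF1 binds metal response elements, whose core was searched as TGCACNC or TGCGCNC on both strands in RefSeq promoter windows of 300 bases, from 250 before to 50 after each annotated start (GRCm38.p6). Of the 10 Slc39 genes 7 had at least 1 window, 11 windows in all, and Slc39a4, Slc39a6 and Slc39a14 had none. The core was found in 5 of the 11 windows, in 4 genes (Slc39a5, Slc39a8, Slc39a11 and Slc39a13), with 1 match in each of these windows and 2 of the windows belonging to Slc39a11, against 25.7% of the 32851 windows of all genes. The Mt2 window held 4 matches and that of Mt1 held 3; at least 4 occur in 0.517% of all windows. A match is a description of the letters and not a binding site. The windows of 3 Slc39 genes with a core at their first listed start are shown beside that of Mt2 so that the single and the repeated matches can be compared, from 250 bases before to 30 after the start, with the cores in capitals on the strand of the gene (a core on the other strand reads as its reverse complement).
Slc39a5, chr10:128401195-128401474, minus strand: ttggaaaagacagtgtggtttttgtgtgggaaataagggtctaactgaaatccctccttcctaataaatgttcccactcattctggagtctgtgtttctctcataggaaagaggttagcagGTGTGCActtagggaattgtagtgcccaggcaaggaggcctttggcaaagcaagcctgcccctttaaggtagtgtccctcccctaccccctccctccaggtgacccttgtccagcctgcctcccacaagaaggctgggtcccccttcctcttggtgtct
Slc39a11, chr11:113650063-113650342, minus strand: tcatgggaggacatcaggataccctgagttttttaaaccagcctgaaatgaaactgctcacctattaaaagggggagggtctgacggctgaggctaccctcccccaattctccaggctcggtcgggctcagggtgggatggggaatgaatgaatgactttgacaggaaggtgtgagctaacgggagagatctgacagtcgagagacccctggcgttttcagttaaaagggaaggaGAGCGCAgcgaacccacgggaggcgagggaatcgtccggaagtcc
Slc39a13, chr2:91070286-91070565, minus strand: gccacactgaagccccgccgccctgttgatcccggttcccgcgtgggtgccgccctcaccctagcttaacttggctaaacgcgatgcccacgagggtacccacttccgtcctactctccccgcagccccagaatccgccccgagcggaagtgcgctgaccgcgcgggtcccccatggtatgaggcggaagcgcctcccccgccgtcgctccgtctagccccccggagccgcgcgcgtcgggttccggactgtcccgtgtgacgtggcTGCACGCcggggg
Mt2, chr8:94172368-94172647, plus strand: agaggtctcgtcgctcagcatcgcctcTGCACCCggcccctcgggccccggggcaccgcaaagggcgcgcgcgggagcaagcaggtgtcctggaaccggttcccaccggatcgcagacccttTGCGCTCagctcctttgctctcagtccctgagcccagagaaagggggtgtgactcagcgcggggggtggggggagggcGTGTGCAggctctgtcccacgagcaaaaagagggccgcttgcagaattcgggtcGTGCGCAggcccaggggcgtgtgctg
The 4 Slc39 genes with a core had log2 fold changes of 0.74, -0.03, 0.30 and -0.07 in the order named above, none of them called, while Mt2 rose by 3.98. Slc39a3, outside the 10, had 1 core and stood at 0.03. Whether the number of cores bears on these differences was not tested.

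Pathways in which the Slc39 genes take part were looked up by lists, whose calls are to be read against the 2.49% of all genes. Counts at an unadjusted p under 0.05 are to be read against the 14.5% of all genes that edgeR gave there. Of 24 genes of interleukin 6 signalling and the acute phase, 1 fell, 0 rose and 23 did not pass (median log2 fold change -0.19), and 4 had an unadjusted p under 0.05. The gene that fell was Il6ra, the interleukin 6 receptor, with 39.6, 112 and 119 CPM in wild type replicates 1 to 3 and 52.1, 56.3 and 9.57 CPM in Atp7b-/- replicates 1 to 3. Within each layout the Atp7b-/- libraries were lower (log2 fold change -1.402, SE 0.23, adjusted p = 0.0151 by edgeR). That call was lost without wild type replicate 1 (adjusted p = 0.0878 by edgeR) or without Atp7b-/- replicate 3 (0.0948). Both of these fits rest on the single-end libraries. The next smallest p belonged to Apcs, which encodes serum amyloid P (log2 fold change 1.05, SE 0.26, adjusted p = 0.0792). Among 15 genes of iron and manganese transport 0 were called by edgeR and 0 had an unadjusted p under 0.05, with Ireb2 at 0.44 and Tfr2 at -0.30 (adjusted p = 0.472 and 0.551). Among 18 genes of the unfolded protein response in the endoplasmic reticulum, where Slc39a7 acts, 0 were called by edgeR and 2 had an unadjusted p under 0.05. These were the disulfide isomerase genes Pdia6, at 0.94 (adjusted p = 0.0985), and Pdia4, at 0.66 (adjusted p = 0.293).

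Summed markers of other liver cells overlapped between the genotypes when layout was set aside. The endothelial sum was 226, 622 and 517 CPM in wild type replicates 1 to 3 and 407, 454 and 212 CPM in Atp7b-/- replicates 1 to 3, lower in the mutants within each layout. Of the 10 log2 fold changes 9 were negative, with a median of -0.30, where 49.1% of all genes were positive. Markers of a cell type in the same libraries are not separate observations. For Kupffer cells and macrophages the mutant sums, 227 to 344 CPM, lay within the wild type range, as did those for stellate cells (379 to 471 CPM within 314 to 593). In these lists 0 of 10, 0 of 10 and 0 of 9 markers were called by edgeR, and 2, 0 and 0 had an unadjusted p under 0.05 (14.5% of all genes). Biliary markers summed to 61.1, 52.3 and 42.6 CPM in wild type replicates 1 to 3 and to 59.9, 69.9 and 97.7 CPM in Atp7b-/- replicates 1 to 3, higher in the mutants within each layout. Of 6 tested, 0 were called by edgeR and 2 had an unadjusted p under 0.05 (14.5% of all genes). The median log2 fold change was 0.55, with 4 positive and 2 negative, Krt7 (-0.30) and Krt19 (-0.002). Separate ranges were seen in 2, both higher in the mutants (5.23% of all genes): Sox9 (log2 fold change 1.36, adjusted p = 0.104 by edgeR) and Epcam (0.74, adjusted p = 0.568). Epcam was low, with 2 to 36 counts per library. The part of these cells in the Slc39 values was not tested. Of 7 lymphocyte markers only Ptprc passed the filter, and it was not called (log2 fold change 0.02, adjusted p = 0.982 by edgeR).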

How the data were processed

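Liver RNA was counted in 6 libraries. The values are raw gene-level counts as the authors deposited them. STAR 2.4, featureCounts, edgeR 3.8 and GRCm38 are named in the submitters' processing notes, with no roles. How strand, read pairs and shared reads were counted, and against which annotation, is not stated there. A GENCODE M21 annotation (GRCm38) named 40340 of 41388 identifiers and gave coordinates and exon lengths. The test was edgeR 4.0.16 under R 4.3.3 (TMM, filterByExpr at a minimum of 10 counts, robust quasi-likelihood model of genotype with layout as covariate, Benjamini-Hochberg adjustment over 12988 genes, threshold 0.05). The same fit was also run on simulated counts, with dispersions from a model of layout alone, and its outcome is not reported here. Each SE was derived from the F statistic of its gene, and 95% intervals use the moderated degrees of freedom. Libraries of 1 genotype differed by far more than sampling noise (chi-square per gene 38.0 to 524), and none was merged.

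All 10 Slc39 genes and the 4 others, Atp7b, Mt1, Mt2 and Xist were named; of each further list, the called genes or up to 2 with the smallest p. Of 155 listed genes 154 matched a symbol (Tf did not). Slc30a1, Mtf1, Ddx3y, Alb and the single markers not at 0 or called are outside this rule and were chosen after their values were seen. Protein features, planned as a description, were not computed. The genes and lists were chosen with earlier results of these data known. Alternatives were RLE and upper-quartile scaling, other filters, a non-robust fit, DESeq2 1.42.0, limma-voom (limma 3.58.1), other covariates, single-end libraries only and leaving out each library.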

Additional observations from a re-analysis of the deposited data

How the results depend on the processing

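The number of Slc39 genes called stayed at 0 in each direction under all 16 alternatives. These are not all separate: the fits without either paired-end library rest, for genotype, on the same libraries as the single-end fit. Other counts moved. With layout dropped, or replaced by labelled sex, 0 genes were called in all, 0 in the other zinc lists and 0 in the acute phase, iron and unfolded protein lists. Without a filter beyond 1 count the numbers were 1116 in all, 5 in the other zinc lists (Mt1, Mt2, Mt4, Slc30a10 and Slc39a2) and 4 in the latter lists (Apcs, Il6ra, Pdia6 and Socs3). DESeq2 called 728 in all and 4 in the latter lists (Apcs, Hamp, Il6ra and Pdia6), limma-voom called 1 zinc gene (Mt2), and the single-end libraries alone gave 126, 1 (Mt2) and 0. Against 323 in all, 2 zinc genes and 1 gene of the latter lists, leaving out each library gave 119 to 323, 1 to 3 and 0 to 3; the lowest totals came without Atp7b-/- replicate 3 (119), wild type replicate 1 (131) and Atp7b-/- replicate 1 (208). The layout difference was called in 1 to 6 Slc39 genes in place of 5 when a library was left out. The sign turned for Slc39a5 (-0.12) and Slc39a7 (-0.12) in the single-end libraries alone, and without either paired-end library; leaving out each library gave -0.12 to 1.89 for Slc39a5 and -0.12 to 0.68 for Slc39a7. For Slc39a8, near 0 throughout, it turned with upper-quartile scaling (0.023), no filter (0.0053), labelled sex (0.0028) and without wild type replicate 2 (0.064) or Atp7b-/- replicate 2 (0.13), within -0.14 to 0.13 over the left-out libraries. The cause was not tested. The other 7 Slc39 genes kept their sign wherever they were fitted; Slc39a10 was below the filter in 2 alternatives. The smallest adjusted p of Slc39a14 over the alternatives was 0.0686. No paired analysis was possible because the labels give the genotypes no shared replicate numbers. Depth limits Slc39a5, Slc39a6 and Slc39a10 most, with 332, 280 and 439 counts over the 6 libraries. The alternatives for the layout counts and for the acute phase, iron and unfolded protein lists were added after seeing the data.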

Other observations

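In 2 genes of the zinc lists nearly all counts came from 1 library. Mt4, a metallothionein gene of stratified epithelia, had 210 counts in wild type replicate 1 and 0 in each of the other 5 libraries. The vesicular zinc exporter gene Slc30a2 had 123 counts in Atp7b-/- replicate 3 and 0 to 6 in the others. Both are paired-end libraries, and neither gene passed the filter on low counts.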
